A study of Mus musculus with 30 samples.

Results

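The 9 genes described here encode metabolic enzymes of the kidney: Fbp1, Pck1 and G6pc of glucose synthesis, Ass1 of arginine synthesis, Gatm of creatine synthesis, Glud1 of glutamate breakdown, Miox of inositol breakdown, Ggt1 of glutathione breakdown and Khk of fructose use. They were chosen by name and taken as the rows of both count tables whose gene identifier maps to one of these symbols, which gave 9 of 57133 genes in all. RNA-seq of whole mouse kidney was made from 30 libraries in 8 groups. Without surgery there were 3 TG females, 3 WT females, 3 TG males and 3 WT males. With surgery, all in males, there were 6 TG and 6 WT libraries labelled NX+IRI, taken 4 h after ischemia-reperfusion injury and called IRI here, and 3 TG and 3 WT libraries labelled NX alone. TG is the genotype labelled Gsta2-H2BeGFP, a name that joins the gene Gsta2 to a green fluorescent protein fused to a histone, and WT is the wild type. Both surgery groups carry the NX label, so IRI was compared with NX and not with an intact animal. Strain, age, the cells that drive the transgene and the time at which NX kidneys were taken are not given in the sources used here.

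The kidney makes glucose in its proximal tubule, mainly from lactate, glutamine and glycerol. Glutamine gives glutamate, glutamate dehydrogenase turns this into 2-oxoglutarate and ammonia, and the carbon leaves mitochondria to be made into phosphoenolpyruvate by the product of Pck1. The same tubule takes up citrulline and makes arginine from it, and makes guanidinoacetate from arginine and glycine for creatine synthesis in the liver. Its brush border splits glutathione from the filtrate, and its cells phosphorylate fructose and oxidise myo-inositol.

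Total counts ran from 49040915 to 66446450 per library in the 12 libraries without surgery and from 59574069 to 91354407 in the 18 surgery libraries, and the 9 genes held 1.11 to 1.65% of each library. Levels are given in CPM, counts relative to library size after trimmed-mean scaling within each table, and a level set across the tables rests on 2 separate scalings. The transgene's EGFP entry had 86 counts or more in every TG library and 0 in every WT library except WT IRI replicate 1, which held 206. The summed level of 8 markers of the proximal tubule was 13249 to 26051 CPM over the 30 libraries, and that of the skeletal muscle markers was at most 0.37 CPM. Adipocyte markers summed to 696 CPM in WT NX replicate 0, against 15.2 and 18.1 CPM in the other WT NX libraries. Each of the 9 genes except Khk had its lowest WT NX level in that replicate. Several values below are also given without one of these 2 libraries.

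All 9 genes were abundant in every group. Ranked per length, as CPM per kilobase of exon (RPKM) averaged over the 8 groups, Ass1 stood highest of the 9 at 1230 RPKM, the 16th of all genes. Miox followed at 1124, Pck1 at 1010 and Fbp1 at 707 RPKM. Lower levels were found for Khk at 346, Ggt1 at 318, Gatm at 309, G6pc at 208 and Glud1 at 162 RPKM, the last being 240th of all genes. The related enzymes were far lower on the same scale. Pck1, the cytosolic phosphoenolpyruvate carboxykinase, had group means of 571 to 1279 RPKM, whereas the mitochondrial enzyme Pck2 had 1.35 to 3.20 RPKM. Fbp1 had 608 to 848 RPKM and its muscle-type counterpart Fbp2 had 7.75 to 19.9 RPKM. G6pc had 109 to 297 RPKM, against 20.4 to 25.5 RPKM for the broadly expressed G6pc3. Gatm, the first enzyme of creatine synthesis, had 254 to 386 RPKM, whereas Gamt, the second, had 8.78 to 14.9 RPKM. Ass1 had 877 to 1660 RPKM and Asl, which releases arginine in the next step, had 48.7 to 64.3 RPKM.

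**Figure D1:**
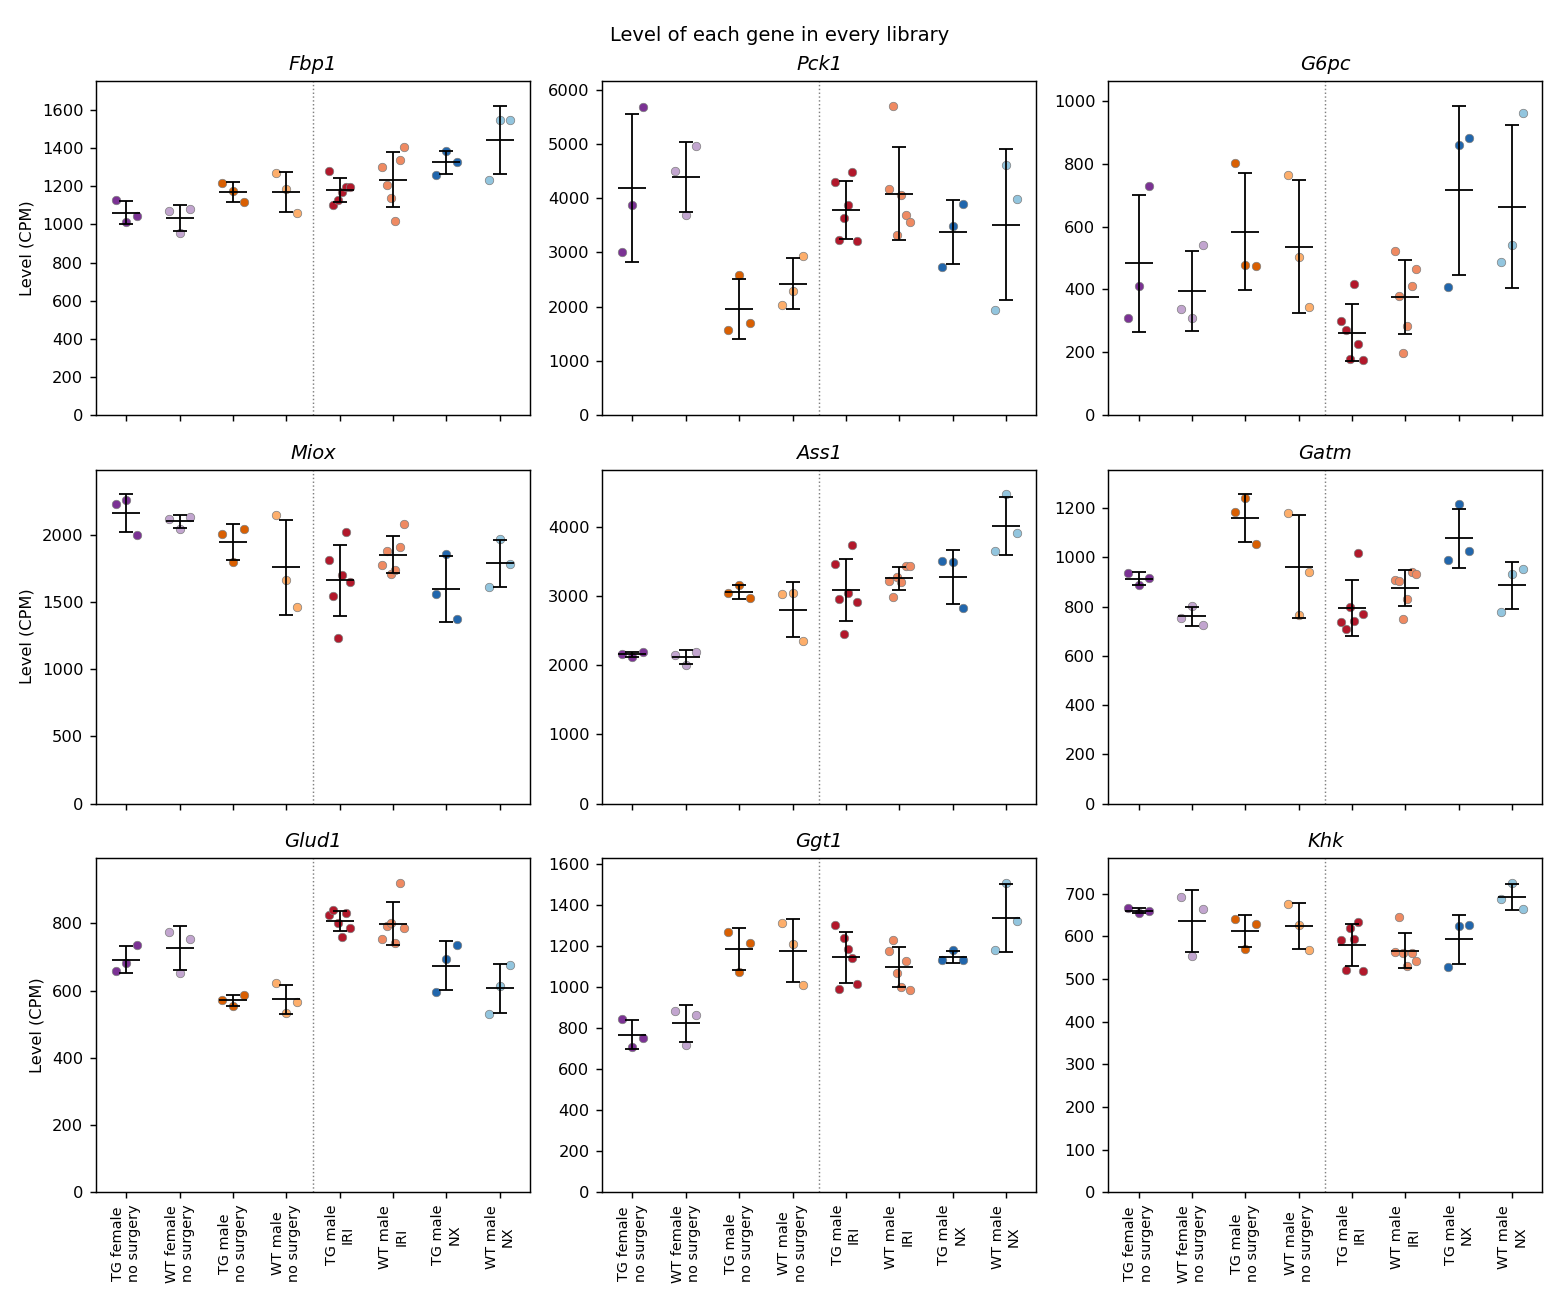
CPM of each of the 9 genes in every library by group (points; horizontal line and bars are the group mean and SD), with the 2 separately scaled tables on either side of a dotted line. Pck1 and G6pc spread most within groups, and the 6 female libraries lie below the 6 males without surgery for Ass1 and Ggt1.

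The spread between libraries of a group differed among the genes. The median coefficient of variation over the 8 groups was 36.1% for G6pc, which encodes the catalytic subunit of glucose-6-phosphatase, and 20.2% for Pck1. It was between 6.16% for Fbp1 and 9.91% for Ggt1 in the other genes. WT NX kidneys had the highest mean level of Fbp1, Ass1, Ggt1 and Khk, at 1443, 4007, 1335 and 692 CPM. The highest mean was in WT females for Pck1 (4386 CPM), in TG females for Miox (2157 CPM), in TG males without surgery for Gatm (1159 CPM), in TG NX kidneys for G6pc (716 CPM) and in TG IRI kidneys for Glud1 (806 CPM). Under one scaling over all 30 libraries the highest group became WT IRI for Pck1 and Miox and TG NX for Gatm. In the order of the 8 group means, most neighbours overlapped. For Ass1 the steps without overlap were WT NX above TG NX and WT males without surgery above TG females. For Miox, WT females stood above TG males without surgery, with nearest libraries at 2043 and 2041 CPM. For Ggt1, WT IRI stood above WT females, a step between the separately scaled tables. Under the one scaling, TG IRI (1806 CPM) came between WT females (1841) and TG males without surgery (1733) for Miox. For Ggt1, TG and WT males without surgery (1055 and 1046 CPM) came between WT IRI (1185) and WT females (722).

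Females and males differed in 4 of the 9 genes, the same 4 in both genotypes: Pck1 and Glud1 were higher and Ass1 and Ggt1 lower in females. The largest difference was that of Pck1, 2.14-fold higher in TG females than TG males and 1.81-fold higher in WT females than WT males. A gene is called here when the adjusted p of the edgeR quasi-likelihood test is under 0.05. Overlap between the libraries of compared groups is described only, and the share of all genes without overlap is not given. Against the 2 higher and 2 lower calls among the 9, 9.87% of 19126 tested genes were called higher and 11.3% lower in TG females. In WT females 10.1% of all genes were called higher and 11.3% lower.

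Pck1 converts oxaloacetate to phosphoenolpyruvate, the committed step from lactate and glutamine to glucose. Its levels were 3014, 3865 and 5688 CPM in TG females, against 1578, 2587 and 1707 CPM in TG males. In WT females they were 4503, 3689.9 and 4966 CPM, against 2026, 2293 and 2939.97 CPM in WT males. Every female library lay above every male library of its genotype. The log2 fold change was 1.10 ± 0.24 (SE, adjusted p = 0.00602) in TG and 0.86 ± 0.24 (adjusted p = 0.0215) in WT. The WT call did not survive leaving out female replicate 0 (log2 0.83, adjusted p = 0.0599) or 2 (0.76, adjusted p = 0.0851). Nor did it without male replicate 0 (0.75, adjusted p = 0.0876) or 1 (0.82, adjusted p = 0.0663).

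Glud1, the mitochondrial glutamate dehydrogenase, had 658, 682 and 736 CPM in TG females and 572, 554 and 586 CPM in TG males. It had 774, 651 and 752 CPM in WT females and 621, 533 and 567 CPM in WT males. The groups did not overlap in either genotype. The log2 fold change was 0.28 ± 0.08 (adjusted p = 0.0290) in TG and 0.34 ± 0.08 (adjusted p = 0.00987) in WT. The WT call held when any one library was left out. The TG call held only without TG female replicate 0: it was lost without replicate 1 or 2 of the TG females (adjusted p = 0.0559 and 0.110) or any one TG male (adjusted p = 0.0561 to 0.0818).

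Ass1 joins citrulline and aspartate, the first step of arginine synthesis in the tubule. Its levels were 2157, 2118 and 2188 CPM in TG females, against 3042, 3156 and 2965 CPM in TG males. In WT females they were 2148, 2008 and 2196 CPM, against 3025, 3039.5 and 2345 CPM in WT males. All 6 female libraries were below all 6 male libraries. The log2 fold change was -0.51 ± 0.09 (adjusted p = 0.00214) in TG and -0.40 ± 0.09 (adjusted p = 0.00814) in WT. Ggt1, the brush-border enzyme that opens glutathione breakdown, had 843, 706 and 752 CPM in TG females, against 1269, 1072 and 1213 CPM in TG males. WT females had 882, 719 and 866 CPM of Ggt1, against 1310.4, 1209.6 and 1011 CPM in WT males. Here too the sexes did not overlap. The log2 fold change of Ggt1 was -0.63 ± 0.11 (adjusted p = 0.00165) in TG and -0.52 ± 0.11 (adjusted p = 0.00558) in WT. The Ass1 and Ggt1 calls held in both genotypes when any one library was left out.

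The other 5 genes did not pass the test between the sexes. Gatm was the nearest, at 937, 886 and 916 CPM in TG females against 1182, 1242 and 1052 CPM in TG males. Its log2 fold change was -0.35 ± 0.12 in TG (adjusted p = 0.0652), where the sexes did not overlap, and -0.34 ± 0.12 in WT (adjusted p = 0.0703), where they did. DESeq2 called it in both genotypes, with adjusted p of 0.0222 in TG and 0.0240 in WT, and the WT difference passed without WT male replicate 1 (log2 -0.48, adjusted p = 0.00765). G6pc had log2 fold changes of -0.28 ± 0.35 in TG and -0.44 ± 0.35 in WT, with ranges that overlapped. Fbp1, Miox and Khk had log2 fold changes between -0.18 and 0.26, and Miox in WT passed without WT male replicate 0 (log2 0.43, adjusted p = 0.00748). Whether the sex difference itself differed between genotypes was tested for all 9 genes, and none was called, against 0.00523% of all genes. The widest of these intervals was that of G6pc, from -0.83 to 1.15 (log2, ± 2 SE), and that of Pck1 ran from -0.43 to 0.91.

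Segment markers moved with sex as well. The 8 proximal tubule markers summed to a median of 14794 CPM in TG females against 19725 CPM in TG males, and to 14658 CPM in WT females against 19762 CPM in WT males, with no overlap. Its members did not move one way: 3 of the 8 were called higher and 3 lower in TG females, and 1 higher and 3 lower in WT females. Lrp2, the endocytic receptor megalin, had 2825 to 3185 CPM in TG females against 1707 to 2039 CPM in TG males. The 5 markers of its S3 segment summed to a median of 627 CPM in TG females against 1738 CPM in TG males, and to 728 CPM in WT females against 1887 CPM in WT males. Of these 5, 1 was called higher and 3 lower in females of each genotype. Slc7a13 alone had 1.24 to 2.45 CPM in TG females against 634 to 865 CPM in TG males. The 4 thick ascending limb markers summed to a median of 9042 CPM in TG females against 5185 CPM in TG males, and to 9770 CPM in WT females against 5701 CPM in WT males. Higher calls in females were not limited to that segment. They took in 4 of 4 distal convoluted and connecting tubule markers and 3 of 4 podocyte markers in each genotype. Of 5 collecting duct markers, 3 were called higher in TG and 5 in WT. Of 5 endothelium markers, 0 were called in either. None of these markers was at 0 in all libraries of a group. In whole-kidney RNA, fewer cells of a type and less RNA per cell cannot be told apart, and the part of these markers in the sex differences was not tested.

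**Figure D2:**
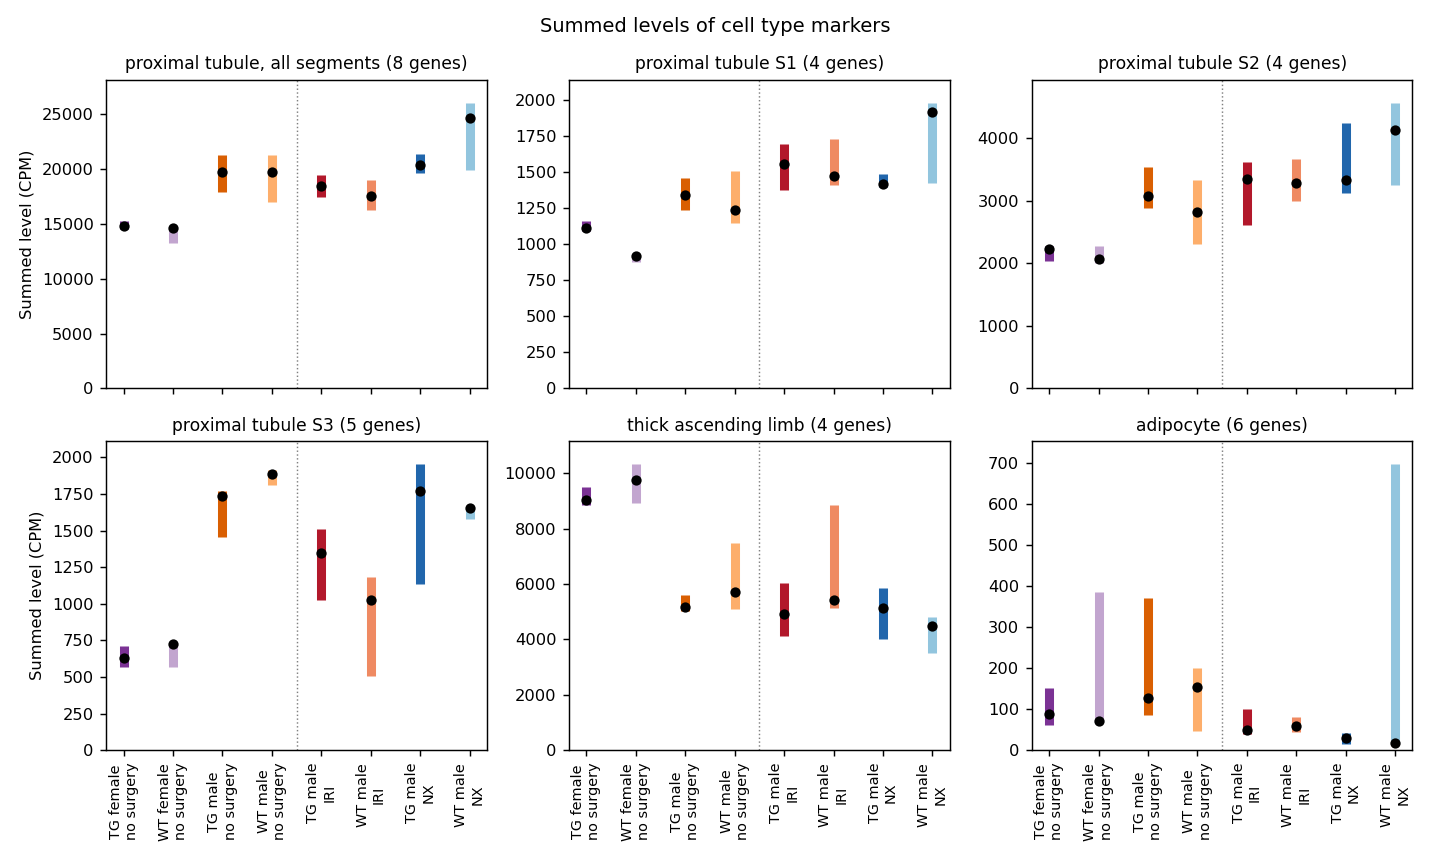
Summed CPM of marker lists in each group (bar from lowest to highest library, dot at the median; the axes start at 0 and differ in range). The sum over the 8 markers of all proximal tubule segments is lower in females than in males without surgery and lower in IRI than in NX kidneys of the same genotype; the S1 and S2 sums of IRI and NX kidneys overlap.

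At 4 h after injury, G6pc and Glud1 passed the test in both genotypes. G6pc was lower, 2.72-fold in TG IRI against TG NX kidneys and 1.78-fold in WT IRI against WT NX kidneys, and Glud1 was higher, 1.20-fold in TG and 1.30-fold in WT. In TG, Gatm was also called, 1.34-fold lower. In WT, Ass1, Ggt1, Khk and Fbp1 were also called, 1.18-fold to 1.25-fold lower. Pck1 and Miox were called in neither. That made 1 higher and 2 lower among the 9 in TG, against 16.4% and 13% of 19264 tested genes, and 1 higher and 5 lower in WT, against 16.8% and 14.1%. Upper-quartile scaling moved the split of all calls to 2488 higher and 4280 lower in TG, against 3152 and 2509, with a median of all genes of -0.14, and to 2790 higher and 3931 lower in WT, against 3229 and 2723.

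G6pc releases free glucose from glucose-6-phosphate, the last step of glucose synthesis. Its level was 177 to 419 CPM in TG IRI kidneys with a median of 248, against 406, 858 and 883 CPM in TG NX kidneys. In WT IRI kidneys it was 198 to 523 CPM with a median of 394, against 487, 539.8 and 960.3 CPM in WT NX kidneys. Every TG IRI library but the highest lay below all 3 TG NX libraries, and the ranges overlapped in both genotypes. The log2 fold change was -1.44 ± 0.30 (adjusted p = 0.00114) in TG and held when any library was left out. In WT it was -0.83 ± 0.30 (adjusted p = 0.0428). The WT call was lost without WT NX replicate 1 (adjusted p = 0.0590) or 2 (log2 -0.46, adjusted p = 0.362). It was also lost without WT IRI replicate 1, 2, 3 or 4, with adjusted p of 0.0603, 0.0836, 0.0854 and 0.0595, by DESeq2 (adjusted p = 0.0579) and with a replicate block (adjusted p = 0.112). The difference between the genotypes was -0.61 ± 0.44 (log2, adjusted p = 0.692).

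The other steps specific to glucose synthesis moved less. Pck1 had 3204 to 4480.5 CPM in TG IRI kidneys with a median of 3751, against 2739, 3491 and 3896 CPM in TG NX kidneys. It had 3325 to 5703 CPM in WT IRI kidneys with a median of 3873, against 1943, 4616 and 3978 CPM in WT NX kidneys. Both pairs of groups overlapped, and the log2 fold changes were 0.18 ± 0.21 in TG (adjusted p = 0.580) and 0.20 ± 0.21 in WT (adjusted p = 0.503). Intervals of 2 SE ran from -0.24 to 0.59 in TG and from -0.21 to 0.62 in WT. The WT value turned to -0.08 without WT NX replicate 0 and was 0.08 without WT IRI replicate 1, and leaving out any one library gave -0.08 to 0.46. Fbp1, the fructose-1,6-bisphosphatase, had 1100.5 to 1282 CPM in TG IRI kidneys, against 1261 to 1385 CPM in TG NX kidneys, with a log2 fold change of -0.16 ± 0.09 (adjusted p = 0.207). It had 1016 to 1404 CPM in WT IRI kidneys, against 1236 to 1547 CPM in WT NX kidneys, with a log2 fold change of -0.24 ± 0.09 (adjusted p = 0.0464). This WT call of Fbp1 was lost without WT NX replicate 1 (log2 -0.18, adjusted p = 0.270) or 2 (log2 -0.18, adjusted p = 0.266) and without WT IRI replicate 1, 2, 3 or 4 (adjusted p = 0.0696, 0.110, 0.114 and 0.0575). It was also lost with RLE factors, with no count filter, by DESeq2, with halved counts, with a replicate block and with only the 2 groups fitted (adjusted p = 0.0591 to 0.155), and the TG value passed under upper-quartile scaling (adjusted p = 0.0297).

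The promoters of Pck1 and G6pc are shown because both genes belong to glucose synthesis, Pck1 being the member with the largest sex difference and G6pc the one with the largest injury difference. Each is the 250 bases before the start in RefSeq, build GRCm38.p6, plus strand, written 5′ to 3′. Capitals mark TTACGTCA, a variant of the cAMP response element, in Pck1, and a match to GTTAATNAT, an HNF1-type site, in G6pc.
Pck1, chr2:173152823-173153072: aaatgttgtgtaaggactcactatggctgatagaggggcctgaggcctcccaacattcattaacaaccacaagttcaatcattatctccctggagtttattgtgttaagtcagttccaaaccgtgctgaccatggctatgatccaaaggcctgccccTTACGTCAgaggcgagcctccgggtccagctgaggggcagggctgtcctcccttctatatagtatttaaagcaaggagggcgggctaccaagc
G6pc, chr11:101367466-101367715: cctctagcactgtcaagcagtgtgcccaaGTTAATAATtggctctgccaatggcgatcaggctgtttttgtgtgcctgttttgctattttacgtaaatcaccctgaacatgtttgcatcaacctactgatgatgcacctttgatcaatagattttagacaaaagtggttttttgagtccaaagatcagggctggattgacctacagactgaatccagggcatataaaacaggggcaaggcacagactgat
Ggt1, the third of its 4 starts, chr10:75571310-75571559: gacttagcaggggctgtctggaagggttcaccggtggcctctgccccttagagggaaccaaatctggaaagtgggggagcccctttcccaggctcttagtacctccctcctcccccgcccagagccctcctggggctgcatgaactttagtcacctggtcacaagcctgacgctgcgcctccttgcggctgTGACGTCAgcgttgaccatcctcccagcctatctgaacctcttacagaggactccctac
The Ggt1 window is the only other window of the 12 from the 9 genes with a match to any of the 6 motifs searched on both strands, and its capitals mark the cAMP response element TGACGTCA. The matches lie 93 to 86 bases before the start in Pck1, 221 to 213 in G6pc and 59 to 52 in Ggt1. Of 32851 promoters of that length, 0.447% hold TTACGTCA, 0.737% hold GTTAATNAT and 1.55% hold TGACGTCA. The AP-1 site TGANTCA (6.75% of promoters), TGTTCT (16.1%, a glucocorticoid receptor motif) and CAAAGTCCA (0.384%, an HNF4A motif) had no match in the windows of the 9 genes. A match describes these letters and says nothing of binding, and coordinates of this build are not those of the counted genes, which were on GRCm39.

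Glud1 was the only one of the 9 called higher after injury in either genotype. It had 758 to 838 CPM in TG IRI kidneys with a median of 813, against 595, 692 and 735 CPM in TG NX kidneys. In WT IRI kidneys it had 739.9 to 921 CPM with a median of 789, against 531, 614 and 675 CPM in WT NX kidneys. Every IRI library was above every NX library of its genotype. The log2 fold change was 0.27 ± 0.09 (adjusted p = 0.0231) in TG and 0.38 ± 0.09 (adjusted p = 0.00231) in WT. The WT call held without any one library. The TG call was lost without TG NX replicate 0 (log2 0.18, adjusted p = 0.180) or 1 (log2 0.29, adjusted p = 0.0513). With all libraries kept, the TG call was also lost under upper-quartile scaling (log2 0.13, adjusted p = 0.276) and with no count filter (adjusted p = 0.0751).

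Ass1 had 2977 to 3427 CPM in WT IRI kidneys with a median of 3242, against 3646, 4467 and 3907 CPM in WT NX kidneys, with no overlap. Its log2 fold change was -0.32 ± 0.11 in WT (adjusted p = 0.0261) and -0.07 ± 0.11 in TG, where IRI kidneys had 2453 to 3729 CPM and NX kidneys 2828 to 3505 CPM. The WT call was lost without WT NX replicate 1 (log2 -0.22, adjusted p = 0.205) or 2 (adjusted p = 0.0709) and with no count filter (adjusted p = 0.0803). Gatm transfers the amidino group of arginine to glycine. It had 710.1 to 1019 CPM in TG IRI kidneys with a median of 755, against 989, 1215 and 1025 CPM in TG NX kidneys. In TG, 5 of the 6 IRI libraries lay below all NX libraries, and the log2 fold change was -0.43 ± 0.11 (adjusted p = 0.00479). Without TG NX replicate 1 it was -0.33 (adjusted p = 0.0553). In WT, Gatm had 748 to 938 CPM in IRI kidneys with a median of 905, against 777, 933 and 951 CPM in NX kidneys, and a log2 fold change of -0.04 ± 0.11.

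Khk, which phosphorylates fructose, had 529.5 to 645 CPM in WT IRI kidneys with a median of 560.1, against 687, 726 and 664 CPM in WT NX kidneys. All 6 IRI libraries were below all 3 NX libraries, and the log2 fold change was -0.31 ± 0.08 (adjusted p = 0.00787). This call was lost without WT NX replicate 1 (log2 -0.26, adjusted p = 0.0616). In TG, Khk had 519.8 to 634 CPM in IRI kidneys and 527 to 627 CPM in NX kidneys, with a log2 fold change of -0.02 ± 0.08. Ggt1 had 986 to 1228 CPM in WT IRI kidneys with a median of 1098, against 1178, 1508 and 1319 CPM in WT NX kidneys, which overlapped. Its log2 fold change was -0.30 ± 0.09 in WT (adjusted p = 0.0198) and 0.01 ± 0.10 in TG. The WT call of Ggt1 was lost without WT NX replicate 1 (log2 -0.19, adjusted p = 0.211) or 2 (adjusted p = 0.0678), with a replicate block (log2 -0.24, adjusted p = 0.0917), with no count filter (adjusted p = 0.0649) and with only the 2 groups fitted (adjusted p = 0.0511). Miox, which opens the ring of myo-inositol, had 1231 to 2018 CPM in TG IRI kidneys and 1372 to 1857 CPM in TG NX kidneys, and 1707 to 2080.4 CPM in WT IRI kidneys and 1612 to 1963 CPM in WT NX kidneys. Its log2 fold changes were 0.07 ± 0.12 in TG and 0.03 ± 0.12 in WT.

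**Figure D3:**
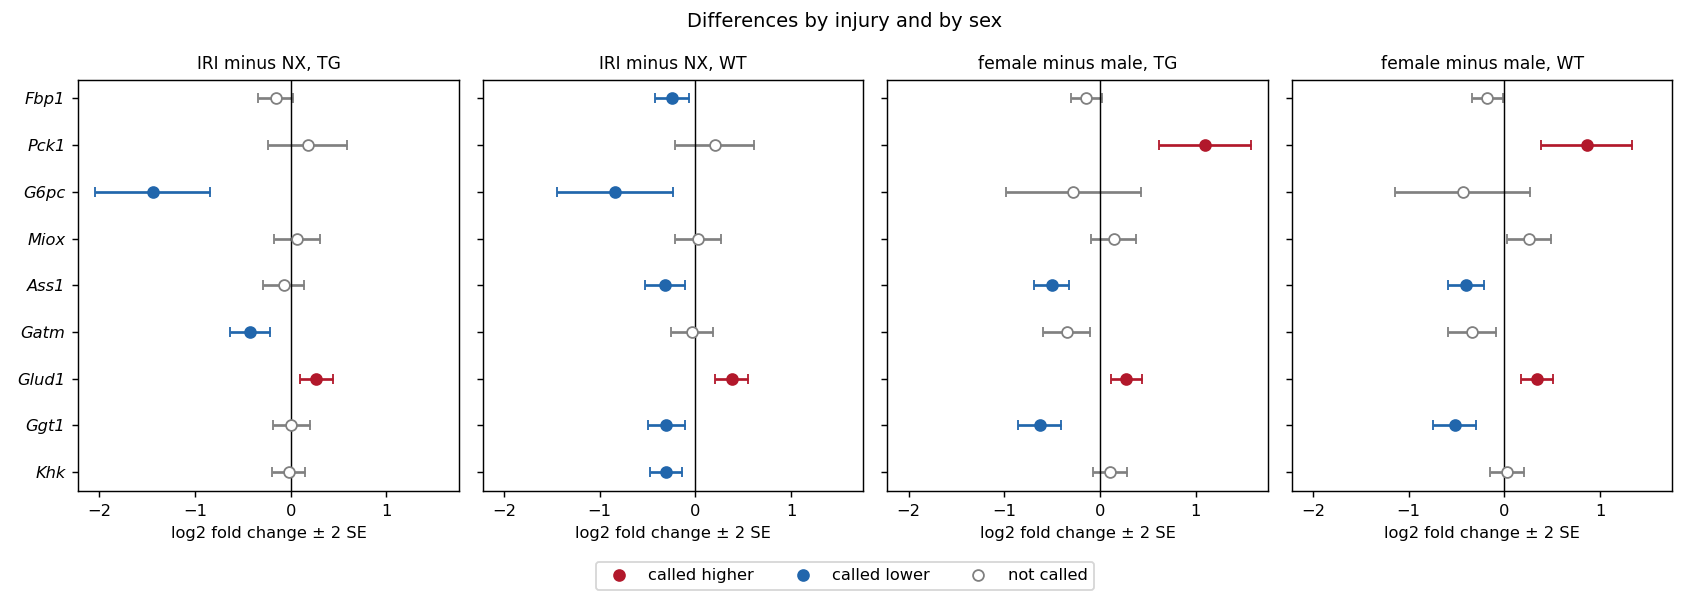
Log2 fold change of each gene (x axis, ± 2 SE) for IRI minus NX and for female minus male, in TG and in WT. Filled points passed the edgeR test at an adjusted p under 0.05; G6pc lies furthest below 0 after injury and Pck1 furthest above 0 in females.

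Genes called in one genotype only were not shown to respond differently. The test of the difference between the TG and WT injury responses called none of the 9 genes and 0% of all genes, and 3 of the 9 had an unadjusted p under 0.05, against 9.59% of all genes. These were Gatm at -0.39 ± 0.15 (adjusted p = 0.448), Ggt1 at 0.31 ± 0.14 (adjusted p = 0.490) and Khk at 0.29 ± 0.12 (adjusted p = 0.471), on the log2 scale. DESeq2 and limma-voom also called none of the 9. The number called in WT was 6 without WT NX replicate 0, the library with adipocyte markers, and 4 without WT IRI replicate 1, the library with EGFP counts. It was 1 without WT NX replicate 1, leaving Glud1, and 2 without WT NX replicate 2. In TG it was 1 without TG NX replicate 1, leaving G6pc, and 2 without TG NX replicate 0. Proximal tubule markers summed to 17435 to 19426 CPM in TG IRI kidneys against 19677 to 21405 CPM in TG NX kidneys, and to 16282 to 18974 CPM in WT IRI kidneys against 19919 to 26051 CPM in WT NX kidneys. Of these 8 markers, which include the regulator Hnf4a, 4 were called lower in TG and 5 in WT, and none higher. Red cell markers summed to 28.4 to 149 CPM in TG IRI kidneys against 3.65 to 18.9 CPM in TG NX kidneys, and to 108 to 1312 CPM in WT IRI kidneys against 35.3 to 119 CPM in WT NX kidneys. Leukocyte markers summed to 18.3 to 53.0 CPM in TG IRI kidneys against 12 to 22 CPM in TG NX kidneys, and to 27.2 to 93.8 CPM in WT IRI kidneys against 11.5 to 14.7 CPM in WT NX kidneys. Of the 6 leukocyte markers, 3 were called higher and 1 lower in TG, and 3 higher and 0 lower in WT. The part of these lists in the injury differences was not tested.

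No comparison of TG with WT called any of the 9 genes. Of all tested genes, 0.00523% were called in males without surgery, 0.0418% in females, 0.0117% in NX kidneys and 0.0701% in IRI kidneys. Unadjusted p fell under 0.05 for 1 of the 9 in males without surgery, 0 in females, 2 in NX kidneys and 1 in IRI kidneys. Over all genes the share under that value was 5.22%, 9.09%, 6.77% and 14.1%. DESeq2 and limma-voom called 0 in each. Gatm was 937, 886 and 916 CPM in TG females, against 755, 802 and 726 CPM in WT females. Its log2 fold change there was 0.26 ± 0.12 (adjusted p = 0.566). In NX kidneys Gatm was 989, 1215 and 1025 CPM in TG, against 777, 933 and 951 CPM in WT. The log2 fold change of Gatm was 0.25 ± 0.12 in NX kidneys (adjusted p = 0.739). In males without surgery it was 0.27 ± 0.12 (adjusted p = 0.916), and in IRI kidneys -0.14 ± 0.09 (adjusted p = 0.495). In NX kidneys Ass1 differed by -0.32 ± 0.13 and Khk by -0.25 ± 0.10, both with an adjusted p of 0.730. In IRI kidneys G6pc differed by -0.52 ± 0.24 (adjusted p = 0.345), and the interval of 2 SE ran from -1.0 to -0.05. Without WT IRI replicate 1 this was again -0.52 (adjusted p = 0.377), Gatm was -0.13, and Pck1 was 0.01 in place of -0.11. These misses do not show that the genotypes had like levels: the intervals of Pck1 ran from -0.78 to 0.17 in males without surgery and from -0.63 to 0.47 in NX kidneys. Without WT NX replicate 0 the Pck1 difference in NX kidneys was -0.37 ± 0.15 (adjusted p = 0.394) in place of -0.08 ± 0.28, and Ass1 was -0.37, Khk -0.25 and Gatm 0.17.

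**Figure D4:**
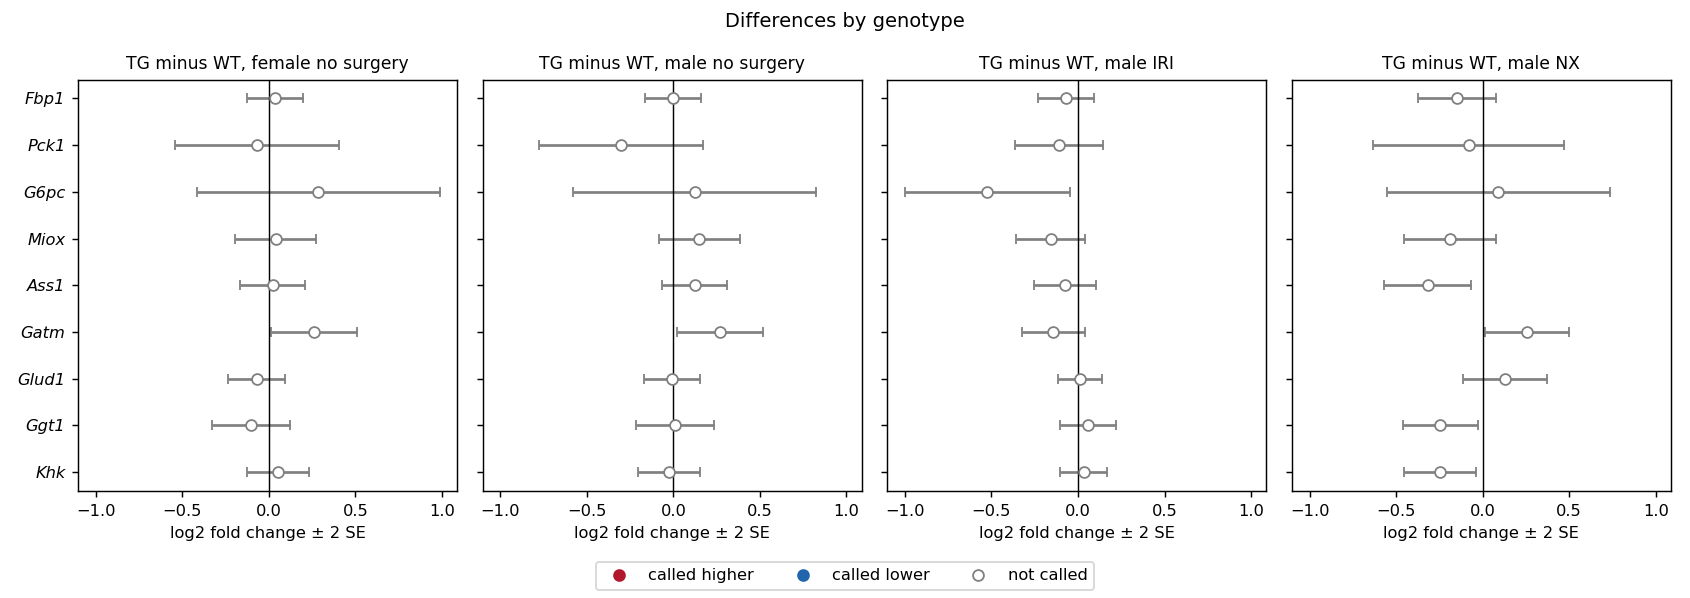
Log2 fold change of TG minus WT for each gene (± 2 SE) in females and males without surgery, NX kidneys and IRI kidneys. All points are open, meaning that none passed the edgeR test.

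Of 96 further genes in 7 lists around these enzymes, 95 had a row and 91 passed the count filter in the sex and injury fits. Of these, 21 were called higher and 25 lower in TG females, 15 higher and 24 lower in WT females, 14 higher and 16 lower in TG IRI kidneys, and 15 higher and 29 lower in WT IRI kidneys. As shares of the 91, these were 23.1% and 27.5% in TG females, against 9.87% and 11.3% of all tested genes, and 16.5% and 26.4% in WT females, against 10.1% and 11.3%. After injury they were 15.4% and 17.6% in TG, against 16.4% and 13%, and 16.5% and 31.9% in WT, against 16.8% and 14.1%. The lists were chosen with earlier results of these data known, so these shares are a description and no test of the lists. None was called between the genotypes or in either test of a difference between genotypes. The next values are levels and differences of list genes whose calls held when any one library was left out, unless a loss is named.

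Among 16 gluconeogenesis partners, 3 were called higher and 4 lower in TG females and 3 higher and 3 lower in WT females, with list medians of -0.03 in TG and -0.01 in WT against all-gene medians of 0.02 and 0.03 on the log2 scale. Pck2 and Fbp2 were higher in females, whereas Fbp1 was not called. Pck2 averaged 25.0 CPM in TG females against 14.8 CPM in TG males, and Fbp2 averaged 29.3 CPM against 15.9 CPM. In WT females Pck2 averaged 24.3 CPM against 16.2 CPM in WT males, and Fbp2 averaged 28.2 CPM against 13.1 CPM. Pcx, the pyruvate carboxylase, was lower, at 494 ± 66.3 CPM in TG females against 728 ± 58.9 CPM in TG males (SD, n = 3 each), and it was lower in WT females (log2 -0.52, adjusted p = 0.00540). Slc16a1, a lactate transporter, was 3.89-fold lower in TG females than TG males and 2.36-fold lower in WT females than WT males. After injury 2 of the 16 were called higher and 2 lower in TG (median -0.10), and 2 higher and 5 lower in WT (median -0.22), against all-gene medians of -0.01 in both. Slc16a1 was 3.47-fold higher in TG IRI kidneys (110 ± 21.8 CPM, n = 6) than in TG NX kidneys (31.9 ± 7.46 CPM, n = 3), and 2.97-fold higher in WT. Slc2a2, the basolateral glucose transporter that also stood among the S1 segment markers, was lower after injury by 1.37-fold in TG (adjusted p = 0.000395) and 1.72-fold in WT (adjusted p = 8.49e-07). Of the 4 S1 markers, 1 was called higher and 1 lower in TG IRI kidneys, with a median log2 fold change of 0.20. In WT IRI kidneys 0 were called higher and 1 lower, with a median of -0.27.

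The glutamine and ammonia list had 11 tested genes, of which 1 was called higher and 3 lower in females of each genotype (medians -0.14 in TG and -0.14 in WT). Glul, the glutamine synthetase, was the one called higher, 2.20-fold in TG females (1390 ± 265 CPM against 631 ± 42.6 CPM in TG males) and 3.01-fold in WT females. Slc4a4, the basolateral bicarbonate transporter, and Suclg2, a succinyl-CoA ligase subunit, were lower in both genotypes. After injury 1 was called higher and 1 lower in TG (median -0.13) and 3 lower in WT (median -0.21). Glul was 1.70-fold lower in WT IRI kidneys (adjusted p = 0.00140) and 1.5-fold lower in TG IRI kidneys (adjusted p = 0.0108), the TG call being lost without TG NX replicate 1 (adjusted p = 0.0822). In the creatine and arginine list, 15 of 19 genes were tested, with 5 higher and 3 lower in TG females (median 0.09) and 4 higher and 3 lower in WT females (median 0.02). Arg2, the mitochondrial arginase, averaged 18.6 CPM in TG females against 2.90 CPM in TG males, and 19.9 CPM in WT females against 4.75 CPM in WT males. Oat, the ornithine aminotransferase, was 2.64-fold higher in TG females and 2.48-fold higher in WT females, and Odc1, the ornithine decarboxylase, was 2.47-fold lower in TG females and 2.7-fold lower in WT females. After injury 2 were called higher and 3 lower in TG (median 0.06) and 3 higher and 5 lower in WT (median -0.02). Arg2 was again among those higher, 1.95-fold in TG IRI and 2.94-fold in WT IRI kidneys, and Slc3a1, a subunit of the cystine and dibasic amino acid transporter, was 1.63-fold lower in WT IRI kidneys.

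Inositol and glucuronate genes, 11 tested, had 2 higher and 6 lower calls in TG females, 1 higher and 6 lower in WT females, 3 lower in TG IRI kidneys and 5 lower in WT IRI kidneys. Their medians were -0.25, -0.27, -0.03 and -0.25. Akr1a1, an aldo-keto reductase that acts on glucuronate, was 1.63-fold lower in TG females and 1.48-fold lower in WT females. Sord, the sorbitol dehydrogenase, was lower after injury by 1.25-fold in TG and 1.43-fold in WT. Among 12 gamma-glutamyl cycle genes, 1 was higher and 4 lower in TG females and 2 higher and 4 lower in WT females. Gss, the glutathione synthetase, was 1.40-fold lower in TG females and 1.54-fold lower in WT females, beside the lower Ggt1. After injury 1 was higher and 2 lower in TG and 2 higher and 4 lower in WT. The cystine transporter Slc7a11 had 1.47 ± 0.657 CPM in TG IRI kidneys against 0.0673 ± 0.0377 CPM in TG NX kidneys, and 2.30 ± 1.45 CPM in WT IRI kidneys against 0.193 ± 0.142 CPM in WT NX kidneys. Of 8 fructose genes 7 were tested, with 4 higher and 0 lower in TG females (median 0.64) and 2 higher and 1 lower in WT females (median 0.36). Hk1, a hexokinase, was 1.61-fold higher in TG females and 1.58-fold higher in WT females. After injury 1 was higher and 2 lower in TG and 1 higher and 3 lower in WT, with Glyctk, the glycerate kinase, 1.95-fold lower in TG IRI and 1.72-fold lower in WT IRI kidneys.

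Of 19 transcriptional and signalling regulators of these enzymes, 7 were called higher and 3 lower in TG IRI kidneys and 7 higher and 4 lower in WT IRI kidneys. Cebpd averaged 27.3 CPM in TG IRI against 3.15 CPM in TG NX kidneys and 28.0 CPM in WT IRI against 1.84 CPM in WT NX kidneys. Cebpb, a related factor known to act on the liver Pck1 promoter, averaged 15.2 CPM in TG IRI against 2.42 CPM in TG NX kidneys and 13.2 CPM in WT IRI against 3.03 CPM in WT NX kidneys. Sik1, a kinase that restrains CREB co-activators, was 2.80-fold higher in TG and 2.42-fold higher in WT. Creb1 itself was 1.73-fold lower in TG and 1.95-fold lower in WT. Klf15, a regulator of amino acid breakdown and glucose synthesis, was 2.10-fold lower in TG and 1.62-fold lower in WT, the WT call being lost without WT NX replicate 0 or 2 (adjusted p up to 0.0838). Between the sexes 5 regulators were higher and 5 lower in TG females and 2 higher and 4 lower in WT females. Sik1 was 1.63-fold higher in TG females and 1.67-fold higher in WT females, and Nr1h4, the bile acid receptor, was 1.75-fold lower in TG females and 1.98-fold lower in WT females.

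**Figure D5:**
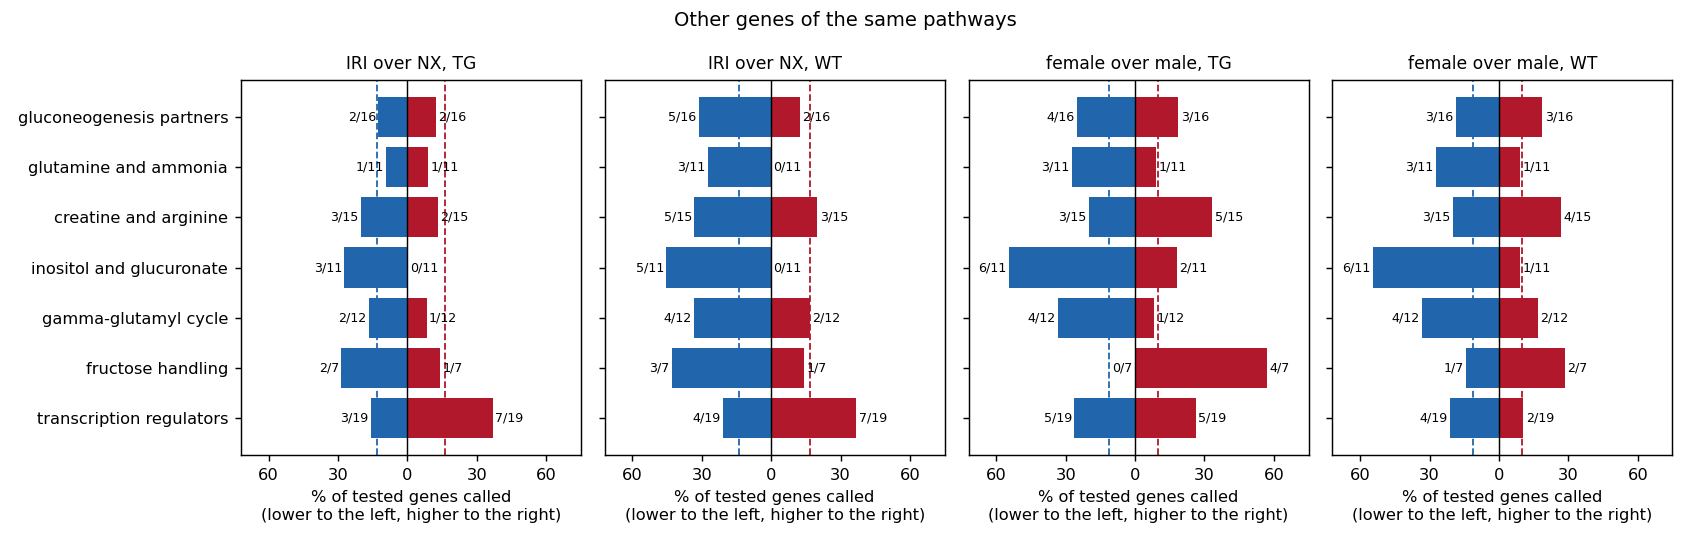
Percent of the tested genes of each list called higher or lower (bars) in the sex and injury comparisons, with dashed lines at the share over all tested genes. The lists hold 7 to 19 tested genes each, so 1 gene is a large step.

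Within groups the 9 genes varied together to different degrees. The deviations of log2 CPM from the group mean correlated positively in 36 of 36 pairs over the 30 libraries, as a description, with a median Pearson r of 0.31. The pairs share library and scaling, and WT NX replicate 0, the library with adipocyte markers, was kept. The share of positive pairs among other genes is not given, so the count does not set these 9 apart. The closest pairs were Miox with Ass1 at 0.79 and Ggt1 with Khk at 0.77, and the weakest was Pck1 with Miox at 0.01. Over the 18 surgery libraries, where group differences enter, the gene most like each member among 8584 was Ptpa for Fbp1 (r = 0.92), Cmip for Pck1 (0.86), Rrm1 for G6pc (0.91) and Renbp for Miox (0.92). It was Akr1a1 for Ass1 (0.94), Sf3b2 for Gatm (0.84), Dstn for Glud1 (0.94), Tspan3 for Ggt1 (0.93) and Ldha for Khk (0.87). Pck1 was followed by App (0.80) and Lbh (0.79).

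The counted genes lie on GRCm39 at 13: 63012567 to 63036096 on the minus strand for Fbp1, 2: 172994841 to 173001066 on the plus strand for Pck1 and 11: 101258387 to 101268729 on the plus strand for G6pc. Ass1 lies at 2: 31360219 to 31410684 on the plus strand and Gatm at 2: 122424948 to 122441784 on the minus strand. Miox lies at 15: 89218601 to 89221218, Glud1 at 14: 34032684 to 34067222, Ggt1 at 10: 75397438 to 75422034 and Khk at 5: 31078775 to 31088592, all on the plus strand. Counts cover all exons of a gene, from 1651 bases for Miox to 4210 bases for Glud1, so isoforms of Ggt1 and Khk cannot be told apart.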

How the data were processed

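Whole-kidney poly-A RNA was sequenced as paired reads. The values are raw counts per gene that the authors made with featureCounts 2.0.3, per the file headers, on an Ensembl GRCm39 annotation with an added EGFP entry; fastp 0.23.2 and STAR 2.7.0 are in the submitters' processing notes. The strand, pair and multi-mapping settings are not given in the sources used here. Among gene counts of at least 10, between 37.3 and 41.9% per library were odd, and halved counts were tried as an alternative. Symbols were matched for 51881 of 57133 gene identifiers.

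Each table was fitted on its own with edgeR 4.0.16 in R 4.3.3 (quasi-likelihood test, TMM factors, filterByExpr, a group-means design over the 12 libraries without surgery or the 18 surgery libraries; NX and IRI genotype comparisons used their own groups), with Benjamini-Hochberg adjustment over all genes tested and a threshold of 0.05. The standard error is the absolute log2 fold change over the square root of F. The procedure was tested on simulated data. DESeq2 1.42.0 and limma 3.58.1 were alternatives. Nothing in the labels says that libraries of a group are separate animals, so p-values measure the spread between libraries, which may be technical.

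The members and lists were chosen with earlier results of these data known. List genes were named by a fixed rule: up to 3 per list, direction and comparison, by largest change, at a mean of at least 1 CPM, of which those that held are described. The 3 most similar genes were sought among genes with at least 10 CPM.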

Additional observations from a re-analysis of the deposited data

Results flagged for a closer look

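In the 18 sets of 6 IRI libraries looked at, one per gene and genotype, 4 held a library whose distance to the nearest of the others was large for its set. For a single set, chance alone gives such a library about 1 time in 20. The 18 sets share libraries and are not independent, so the count of 4 was not set against chance. Pck1 was 5703 CPM in WT IRI replicate 1, where the other 5 WT IRI libraries were lower, and the gap was 0.646 of the whole range. Khk was also highest in that library, at 645.2 CPM, with a gap of 0.712 of the range. That library held 206 EGFP counts. Gatm was 1019 CPM in TG IRI replicate 4, with a gap of 0.721 of the range. Glud1 was 920.6 CPM in WT IRI replicate 4, with a gap of 0.670 of the range.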

How the results depend on the processing

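The direction of no called difference of the 9 genes reversed under any alternative or when a library was left out. The number of genes called between IRI and NX kidneys in WT was 6, and it was 3 without a count filter, 3 with a replicate block and 4 by DESeq2; leaving out 1 library in turn gave 1 to 6. In TG it was 3, and leaving out 1 library gave 1 to 3. Between females and males it was 4 in each genotype, 3 to 4 when a library was left out and 5 by DESeq2, which added Gatm. Comparisons of TG with WT and both tests of a difference between genotypes stayed at 0 of 9 in every setting. Their counts over all genes depended on the tool: DESeq2 called 363 genes in IRI kidneys against 12 by edgeR, 45 against 2 in NX kidneys, 220 against 8 in females, 14 against 1 in males without surgery, 94 against 1 for genotype by sex and 51 against 0 for genotype by injury. Without a count filter these were 43, 127, 107, 15 and 37 for the first 5. The 12 calls in IRI kidneys became 0 without TG replicate 0, 2, 3 or 5 or WT replicate 0, 4 or 5, 19 without TG replicate 4, and 35 or 109 without WT replicate 2 or 3; the 2 in NX kidneys became 15 without WT replicate 0. The replicate block gave 5 calls in IRI kidneys, 40 in females and 11 for genotype by sex. Whether the replicate numbers pair the libraries is not settled by the data, as not every pair's deviations correlated above 0.1. In WT females against males and in both injury comparisons, each of the 3 shared numbers correlated best with itself. In the other comparisons with 3 shared numbers, 2 did. Of the 6 numbers shared by TG and WT IRI kidneys, 2 did, with r from -0.03 to 0.06. Of single-gene results under alternatives that kept all libraries, 681 stayed on their side of the threshold, 14 lost and 7 gained a call. The lowest count of any of the 9 genes in a library was 11476. The cause of each change was not tested.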
